A study of Homo sapiens with 6 samples.

Results

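The SOX genes encode transcription factors with an HMG box, a domain that binds and bends DNA. Open chromatin was examined at 10 of them (SOX1, SOX2, SOX3, SOX4, SOX5, SOX6, SOX8, SOX9, SOX10 and SOX11), out of 20033 protein-coding genes of GENCODE version 44. The 10 genes were taken by name and not by a measured value. They belong to 4 groups of the family: SOXB1 (SOX1, SOX2, SOX3), SOXC (SOX4, SOX11), SOXD (SOX5, SOX6) and SOXE (SOX8, SOX9, SOX10). For each gene the promoter was the window of 3 kb on each side of the transcription start site (TSS) of the canonical transcript, and the locus was the gene body with 100 kb on each side.

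ATAC-seq, in which the Tn5 transposase cuts and tags open DNA, was performed on neural progenitor cells (NPCs) derived from H1, an established human embryonic stem cell line. WT NPCs were unedited. dKO NPCs carried a knockout of both UTX (KDM6A) and JMJD3 (KDM6B), the demethylases of trimethylated lysine 27 on histone H3, and the third group, dKO+BAF53B, was dKO NPCs with added BAF53B, an actin-related protein found in the BAF remodelling complexes of neurons, delivered by lentivirus. Each group had 2 samples, 6 in all, and both are pooled in 1 peak list, so there is no replicate error to give and no test was run. Differences between lists therefore describe these pooled libraries. In such bulk samples a change in the mix of cells and a change in the openness of each cell cannot be told apart. No dKO group with a control lentivirus was among the samples, and the names of the dKO+BAF53B samples give no passage of the cells. The dKO+BAF53B and dKO groups thus differ in transduction as well as in BAF53B, and may differ in passage. The part of each in a difference between these lists was not tested.

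In all, 7880 peaks were listed for WT, 25439 for dKO and 16948 for dKO+BAF53B. Read depth per sample is not given by these files, but the lowest background in a list, which follows its total number of reads, was 6.33 to 6.81 reads per position, so that the lists differed by at most 1.08 times on this measure. The share of all protein-coding genes with a peak at the promoter was 29.0% for WT, 58.7% for dKO and 46.6% for dKO+BAF53B. Near these shares, promoter peaks stood at 4 of 12 neural progenitor markers in WT, at 8 in dKO and at 6 in dKO+BAF53B, while NES, HES5, PROM1 and OTX2 had none in any list. Peaks stood at 0 of 6 pluripotency markers in WT, at 2 in dKO and at 1 in dKO+BAF53B, and POU5F1 and NANOG had none in any list. The deletions are not visible in lists of peaks, so the genotype labels were not checked here.

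SOXB1 proteins keep neural progenitors in an undifferentiated and dividing state, and SOX2 is also a core factor of pluripotent cells. SOXC proteins act later, in differentiating neurons. SOXD proteins lack a transactivation domain of their own and act with or against other SOX proteins, and SOXE proteins direct glial and neural crest fates. All bind a short AT-rich core, usually beside a partner factor such as a POU or PAX protein, and many SOX genes are read from distant enhancers as well as from their promoters.

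Some of the sequences on which the values below rest are shown first. Each is the hg38 sequence of 150 bases around the summit of the promoter peak of highest pileup or the distal peak of highest fold over local background in a group, read along the strand of the gene, with windows that touch an untranslated region passed over for the next strongest. Capitals mark matches, on either strand, to the letters of a SOX motif (ACAATG or ACAAAG), an AP-1 motif (TGACTCA or TGAGTCA), an RFX motif (GTTGCCATG, GTTGCTATG or GTTACCATG), an octamer (ATGCAAAT), an E-box (CAGCTG or CATCTG), a homeodomain motif (TAATTA) or a GC box (GGGCGG). No motif lies inside another, though matches may overlap at their ends. Distal here means outside the promoter windows of protein-coding genes, which follow the canonical TSS, so a distal window may lie near another start.
SOX1 promoter, chr13:112066769-112066918, plus strand: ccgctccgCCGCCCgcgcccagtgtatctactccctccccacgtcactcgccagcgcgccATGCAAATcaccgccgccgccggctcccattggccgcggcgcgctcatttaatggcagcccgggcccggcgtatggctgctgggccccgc
SOX1 distal, chr13:112104015-112104164, plus strand: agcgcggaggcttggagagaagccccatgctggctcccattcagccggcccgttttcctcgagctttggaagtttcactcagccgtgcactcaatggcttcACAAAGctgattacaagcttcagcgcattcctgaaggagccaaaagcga
SOX11 distal, chr2:5726222-5726371, plus strand: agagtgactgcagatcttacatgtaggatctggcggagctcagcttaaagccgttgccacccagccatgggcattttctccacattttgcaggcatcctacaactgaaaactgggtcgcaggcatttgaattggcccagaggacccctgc
SOX5 promoter, chr12:23949861-23950010, minus strand: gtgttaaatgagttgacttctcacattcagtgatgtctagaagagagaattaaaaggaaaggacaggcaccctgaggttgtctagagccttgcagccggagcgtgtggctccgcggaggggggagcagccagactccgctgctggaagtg
SOX6 distal, chr11:16403204-16403353, minus strand: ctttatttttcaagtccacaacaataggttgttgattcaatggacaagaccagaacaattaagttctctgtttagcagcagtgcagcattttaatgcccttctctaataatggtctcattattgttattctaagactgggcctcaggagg
SOX10 distal, chr22:37887772-37887921, minus strand: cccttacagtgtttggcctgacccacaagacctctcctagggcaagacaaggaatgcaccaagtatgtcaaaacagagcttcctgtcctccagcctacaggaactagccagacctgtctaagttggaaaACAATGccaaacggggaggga

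The SOX1 promoter and SOX6 distal windows came from dKO+BAF53B peaks and the others from dKO peaks. The SOX1 promoter window held 1 GC box and 1 octamer. Among dKO+BAF53B peaks within 3 kb of the canonical TSS of a protein-coding gene, 56.5% held a GC box in a window of the same length. An octamer stood within 100 bp of the summit in 0.935% of these peaks. The SOX1 and SOX10 distal windows held 1 SOX motif each, against 19.6% of the dKO peaks over 3 kb from such a TSS. The SOX11 distal, SOX5 promoter and SOX6 distal windows held none of the letters searched. The SOX6 distal window comes from a region that covered the starts of 3 other coding SOX6 transcripts, the nearest 412 bp from the summit. The summit of the SOX11 distal window lay 44 bp from the start of an lncRNA gene.

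The first question was which SOX promoters had a listed peak in each group, and such a promoter is called open below. A missing peak does not show closed chromatin. The WT list was the shortest, and 91.5% of matched WT peaks were higher in dKO. Weaker signal of the WT libraries and closed sites in WT therefore cannot be told apart. The plot of promoter pileups gives the number of reads that covered the summit of the strongest promoter peak, recovered from the deposited scores. WT NPCs had a promoter peak at 3 of the 10 genes (SOX4, SOX11, SOX9), dKO NPCs at 7 (SOX1, SOX2, SOX3, SOX4, SOX11, SOX5, SOX9) and dKO+BAF53B NPCs at 5 (SOX1, SOX4, SOX11, SOX5, SOX9). Beside the 29.0%, 58.7% and 46.6% of all protein-coding genes, the 3, 7 and 5 of 10 lay near the background of each list. In the dKO list and not in WT were 4 SOX promoters (SOX1, SOX2, SOX3, SOX5), where 30.1% of all genes had this pattern. In dKO and not in dKO+BAF53B were 2 (SOX2, SOX3), where the share of all genes was 14.1%, and in all 3 lists were 3 (SOX4, SOX11, SOX9), where it was 27.6%. No SOX gene had a promoter peak in dKO+BAF53B that was missing in dKO, a pattern of 1.97% of all genes. These numbers moved with the length of the lists. With each list cut to its 7880 most significant peaks, promoter peaks stood at SOX4, SOX11 and SOX9 in WT. They stood at SOX2, SOX4 and SOX11 in dKO, and at SOX1, SOX4, SOX11 and SOX9 in dKO+BAF53B. The shares of all genes were then 29.0%, 34.5% and 32.3%.

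**Figure D1:**
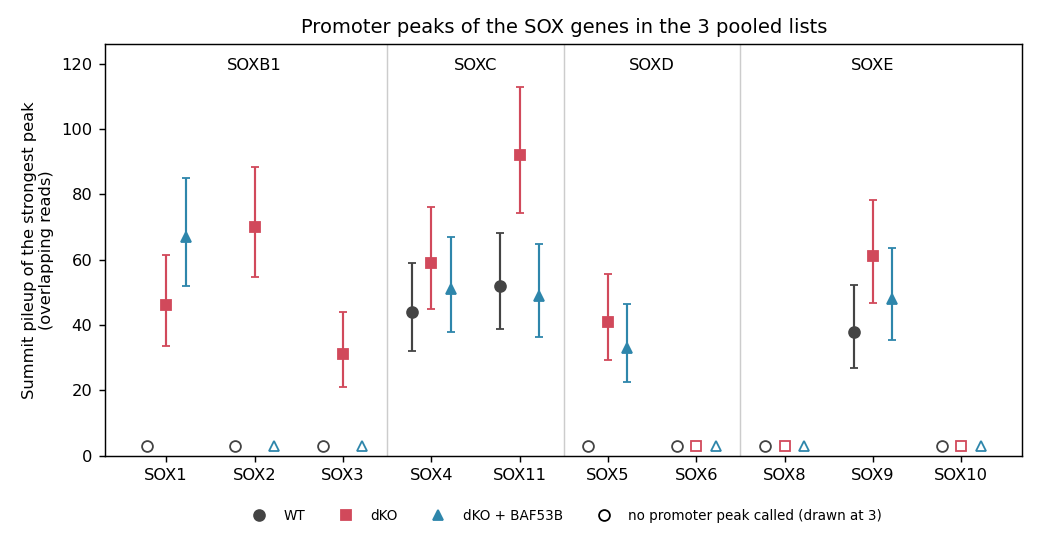
Summit pileup (reads covering the summit) of the strongest promoter peak of each of the 10 SOX genes in the WT, dKO and dKO+BAF53B lists, with exact Poisson 95% intervals that cover counting error only; open symbols at 3 mark genes with no promoter peak called. SOX4, SOX11 and SOX9 carried a peak in all 3 lists, SOX2 and SOX3 in dKO alone, and SOX6, SOX8 and SOX10 in none.

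At the SOXB1 genes, whose products hold progenitors in their undifferentiated state, no promoter peak was listed in WT. SOX2 (ENSG00000181449.4, chr3:181711925-181714436, plus strand) had a dKO peak at chr3:181711179-181712107 with its summit 59 bp upstream of the TSS and a pileup of 70 reads (95% interval 54.6 to 88.4), 4.90-fold over its local background. It ranked at percentile 67.7 among the dKO genes with a promoter peak. Neither WT nor dKO+BAF53B had a SOX2 promoter peak. At a local background within 10% of that of the dKO peak, the smallest pileup called was 37 reads in WT (251 peaks) and 36 reads in dKO+BAF53B. The background of these 2 lists at SOX2 itself is not known. Over all matched WT peaks the scaled ratio of dKO over WT had a median of 1.63. These limits therefore do not show whether the SOX2 promoter was closed in WT or in dKO+BAF53B. All 6 epithelial markers examined (EPCAM, CDH1, KRT8, KRT18, KRT19, GRHL2) shared the pattern of SOX2, with a promoter peak in dKO (pileups 42 to 75) and 0 of 6 in WT and in dKO+BAF53B, where 13.0% of all genes had a promoter peak in dKO alone; their part in the SOX2 result was not tested. The RefSeq sequence (GRCh38.p14) of the 250 bases before the SOX2 TSS, shown because the peak stood there and chosen after its values were seen, held 1 SOX motif and 1 GC box, which 21.2% and 42.6% of 35116 RefSeq windows of this length hold.
SOX2 upstream, chr3:181711675-181711924, plus strand: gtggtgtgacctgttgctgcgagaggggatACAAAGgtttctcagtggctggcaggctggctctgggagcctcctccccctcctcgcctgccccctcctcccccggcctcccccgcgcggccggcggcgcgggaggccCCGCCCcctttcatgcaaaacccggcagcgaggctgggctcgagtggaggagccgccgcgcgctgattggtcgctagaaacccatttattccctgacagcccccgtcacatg

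SOX1 (ENSG00000182968.5, chr13:112067149-112071706, plus strand) differed from SOX2 in keeping its promoter peak with BAF53B. The pileup was 46 reads (33.7 to 61.4) in dKO, with the summit 304 bp upstream of the TSS, and 67 reads (51.9 to 85.1) in dKO+BAF53B, with the summit 305 bp upstream. SOX1 moved from percentile 32.6 of promoter peaks in dKO to percentile 85.2 in dKO+BAF53B. The ratio of dKO+BAF53B over dKO, each pileup scaled to the genome background of its list, was 1.46 (95% interval 0.991 to 2.18 from counting error), so the interval reached 1. WT had none at SOX1. At a local background like that of the dKO peak the smallest pileup called in WT was 37 reads, and the WT background at SOX1 is not known.

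SOX3 (ENSG00000134595.9, chrX:140502985-140505069, minus strand) had the weakest call, a dKO peak of 31 reads at percentile 4.85, with its summit 3114 bp upstream of the TSS and therefore outside the 3 kb window that its edge entered. With a window of 1 kb, or with the summit required inside the window, SOX3 had no promoter peak in any list. Its only other peak was a dKO peak of 31 reads 65.4 kb downstream, and WT and dKO+BAF53B had no peak in the whole locus.

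The distal peaks of the SOXB1 loci were mostly in the dKO list. The strongest lay 36.9 kb downstream of the SOX1 TSS, outside protein-coding genes, at chr13:112103925-112104429, with a pileup of 67 reads in dKO and 31 in dKO+BAF53B and no WT peak. Its ratio of dKO+BAF53B over dKO was 0.465 (0.294 to 0.722), with its interval below 1, while the interval at the SOX1 promoter reached 1. A peak of 38 reads 94.9 kb downstream of SOX1 was listed with BAF53B alone. At SOX2, dKO peaks of 46 reads 16.4 kb upstream and 44 reads 44.9 kb downstream had no partner in the other lists, and a peak of 38 reads 15.9 kb downstream was listed with BAF53B alone. Of the 11 dKO peaks in the SOXB1 loci, 0 overlapped a WT peak and 2 overlapped a dKO+BAF53B peak, both at SOX1. Of all dKO peaks, 24.4% overlapped a WT peak and 44.3% a dKO+BAF53B peak. The 95% intervals of the SOXB1 shares, 0 to 25.9% and 5.14 to 47.7%, contained these values.

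At the SOXC genes, which act in differentiating neurons, the promoter was open in all 3 lists. SOX11 (ENSG00000176887.7, chr2:5692384-5701385, plus strand) had pileups of 52 reads (38.8 to 68.2) in WT, 92 (74.2 to 112.8) in dKO and 49 (36.3 to 64.8) in dKO+BAF53B, with summits 85, 43 and 97 bp upstream of the TSS. By pileup dKO stood above both other lists, which lay close together. By the deposited fold over local background, WT had 4.92, dKO 5.40 and dKO+BAF53B 3.44, so that dKO+BAF53B was the lowest. The scaled ratio of dKO over WT was 1.64 (1.16 to 2.36). Over all WT peaks that overlapped a dKO peak, the median of this ratio was 1.63. The ratio of dKO+BAF53B over dKO was 0.535 (0.371 to 0.765), and that of dKO+BAF53B over WT 0.880 (0.584 to 1.33). The percentile of SOX11 among promoter peaks was 80.6 in WT, 84.1 in dKO and 58.1 in dKO+BAF53B, so its rank in dKO was close to that in WT although its pileup was higher.

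SOX4 (ENSG00000124766.7, chr6:21593751-21598619, plus strand) varied less. Its promoter pileup was 44 reads (32.0 to 59.1) in WT, 59 (44.9 to 76.1) in dKO and 51 (38.0 to 67.1) in dKO+BAF53B, and the 3 intervals overlapped. The ratio of dKO over WT was 1.25 (0.829 to 1.89), and that of dKO+BAF53B over dKO 0.869 (0.585 to 1.29). A second SOX4 region 4.36 kb upstream had 48 reads in dKO and 41 in dKO+BAF53B and none in WT.

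Further from the SOXC genes, the strongest region was 33.9 kb downstream of SOX11 at chr2:5725818-5726625, 44 bp from the start of the lncRNA gene ENSG00000236106. It had 53 reads in dKO and 32 in dKO+BAF53B, a ratio of 0.607 (0.379 to 0.959), and no WT peak. A dKO peak of 26 reads stood 84.9 kb downstream of SOX11. The SOX4 locus held a peak of 31 reads 85.5 kb downstream in dKO+BAF53B alone and a peak of 30 reads 26.9 kb downstream in dKO alone.

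The SOXD genes are long, with many starts: SOX5 (ENSG00000134532.20, chr12:23529504-24562544, minus strand) spans 1033 kb with 20 distinct annotated starts, and SOX6 (ENSG00000110693.19, chr11:15966449-16739591, minus strand) spans 773 kb with 17. At the canonical SOX5 TSS, WT had no peak, dKO had 41 reads (29.4 to 55.6) with the summit 266 bp upstream, and dKO+BAF53B had 33 reads (22.7 to 46.3) with the summit 1321 bp upstream. These were low among promoter peaks, at percentiles 22.8 and 10.6. The canonical SOX6 TSS had no peak in any list.

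Both SOXD genes had stronger peaks elsewhere. In SOX6, the region chr11:16402810-16403558, 46.7 kb upstream of the canonical TSS, covered the starts of 3 other coding SOX6 transcripts. It had 40 reads in dKO and 62 in dKO+BAF53B, a ratio of 1.56 (1.03 to 2.38), and no WT peak. This region and the SOX1 promoter were the SOX regions with the highest ratios of dKO+BAF53B over dKO. A SOX6 region 257 kb upstream, in an intron, was open in all 3 lists with 37, 54 and 42 reads in WT, dKO and dKO+BAF53B. The 5′ end of SOX6 lies at the promoter of C11orf58, a gene on the opposite strand, where the peak had 50, 85 and 72 reads in the same order. The ratio of dKO over WT was 1.58 (1.10 to 2.29), beside a median of 1.63 over all matched WT peaks. This peak cannot be assigned to either gene. With the starts of all transcripts counted, SOX6 had a promoter peak in each list, which made the counts 4 in WT, 8 in dKO and 6 in dKO+BAF53B. The shares of all genes were then 31.6%, 62.8% and 50.5%.

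In SOX5, the region of highest fold over local background was 53.7 kb downstream of the canonical TSS at exon 2 of the canonical transcript, chr12:23895677-23896288. Its pileups of 37 reads in WT, 42 in dKO and 42 in dKO+BAF53B hardly differed, and the ratio of dKO over WT was 1.05 (0.662 to 1.69). By pileup the highest was 192 kb downstream, in intron 3, with 48 reads in dKO, 38 in dKO+BAF53B and no WT peak. A dKO peak of 44 reads 309 kb downstream, in intron 7, had no partner in the other lists. A peak of 36 reads with BAF53B alone lay 1118 bp from the most distant SOX5 start, which made SOX5 the one gene with a peak in dKO+BAF53B and not in dKO when the 5′ end of the gene was used as its TSS.

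Among the SOXE genes, which mark glia and neural crest, SOX9 alone had a promoter peak. SOX9 (ENSG00000125398.8, chr17:72121020-72126416, plus strand) had 38 reads (26.9 to 52.2) in WT, 61 (46.7 to 78.4) in dKO and 48 (35.4 to 63.6) in dKO+BAF53B, with summits 101, 67 and 103 bp upstream of the TSS. By pileup dKO was highest, as at SOX4 and SOX11, but by the deposited fold over local background it was not, with 3.59 in WT, 3.67 in dKO and 4.23 in dKO+BAF53B. The local background was 9.86, 15.9 and 10.6 reads in the same order, and at equal list length SOX9 had no dKO promoter peak. The ratio of dKO over WT was 1.49 (0.979 to 2.30), and its interval reached 1. The median over all matched WT peaks was 1.63. A region 90.4 kb upstream of SOX9, 66 bp from the start of the lncRNA gene LINC01152, was open in all 3 lists at 30, 34 and 35 reads. A dKO peak of 43 reads 66.8 kb downstream had no partner.

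SOX10 (ENSG00000100146.20, chr22:37970686-37987422, minus strand), a factor of oligodendrocytes and neural crest, had no promoter peak but the most peaks among the compact loci, 4 in WT, 8 in dKO and 6 in dKO+BAF53B. The locus is dense in other genes, and 3 of the 8 dKO peaks stood at the promoters of MICALL1, of C22orf23 and POLR2F, or of PICK1. The strongest region away from promoters, 96.7 kb downstream of SOX10 in an intron of EIF3L at chr22:37887489-37888305, had 29 reads in WT, 79 in dKO and 30 in dKO+BAF53B. dKO stood well above the other lists, which were nearly equal. Its ratio of dKO over WT was 2.53 (1.64 to 4.02) and that of dKO+BAF53B over dKO 0.382 (0.242 to 0.588). The SOX10 distal sequence printed above, with its SOX motif, is from this region. A region 50.4 kb downstream, in an intron of MICALL1, had 65 reads in dKO and 28 in dKO+BAF53B, a ratio of 0.433 (0.268 to 0.684), and no WT peak.

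SOX8 (ENSG00000005513.10, chr16:981770-986979, plus strand) had the fewest peaks. Its single peak, of 44 reads in dKO, lay 10.9 kb upstream at the promoter of LMF1, and WT and dKO+BAF53B had none.

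The positions of all peaks around the 10 genes are shown in the map of summits. The SOX loci held 14 peaks in WT, 54 in dKO and 31 in dKO+BAF53B, of which 3, 7 and 5 were at promoters. The dKO count was 3.86 times and the dKO+BAF53B count 2.21 times the WT count, where the whole lists differed 3.23 and 2.15 times. Of the 54 dKO peaks, 18 lay in the body of the SOX gene and 29 in the flanks. With all lists cut to 7880 peaks the counts were 14 in WT, 16 in dKO and 13 in dKO+BAF53B, and with a fixed threshold of −log10 q of at least 10 they were 5, 22 and 12. The dKO count was the highest under both settings, by a smaller margin at equal list length.

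**Figure D2:**
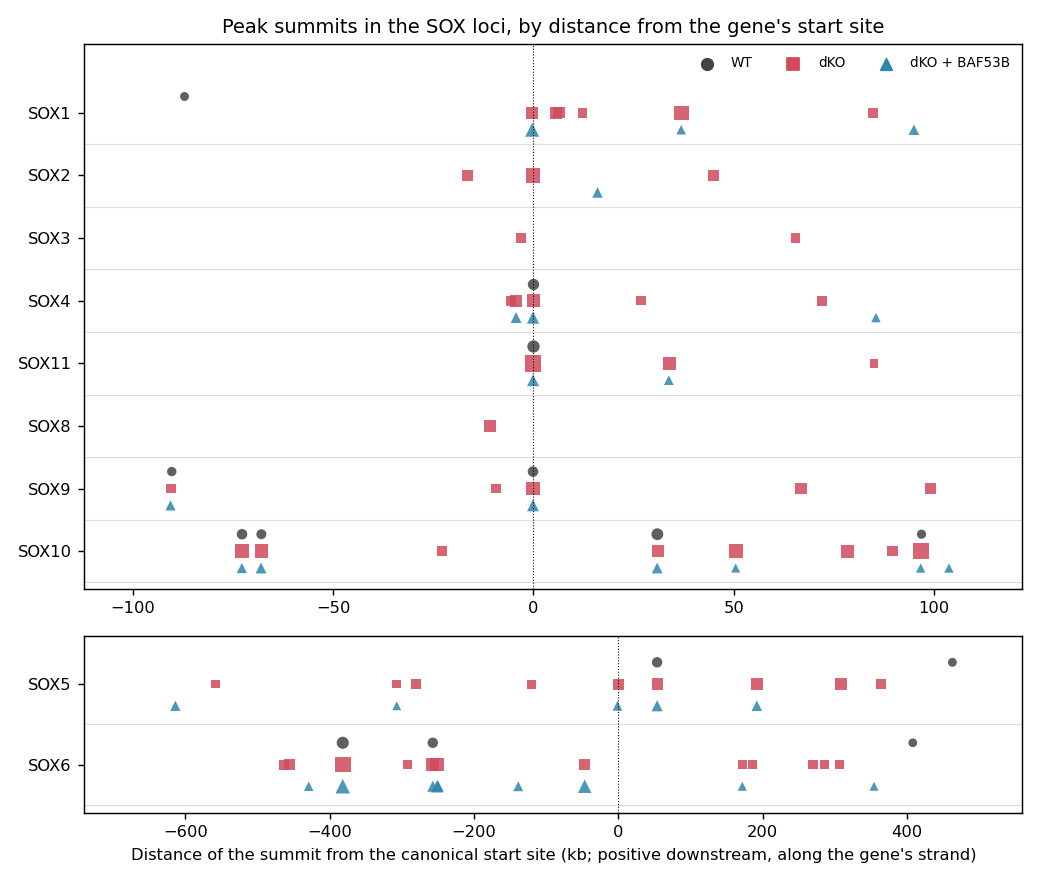
Summits of all peaks in the 10 SOX loci by distance from the canonical TSS in kb (positive downstream along the strand of the gene), with the area of a symbol in proportion to its pileup; the compact genes are above and the long genes SOX5 and SOX6 below. The dKO list gave 54 of the summits, WT 14 and dKO+BAF53B 31, and the SOX2, SOX3 and SOX8 loci had no WT peak.

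The groups differed in density, as the plot of peaks per 100 kb shows. SOXB1 loci had 0.164 peaks per 100 kb in WT, 1.81 in dKO and 0.657 in dKO+BAF53B, from 1, 11 and 4 peaks. SOXC loci had 0.483, 1.93 and 1.21 from 2, 8 and 5 peaks, and SOXE loci 0.956, 2.23 and 1.28 from 6, 14 and 8 peaks. The long SOXD loci had the lowest dKO density, with 0.227, 0.952 and 0.635 from 5, 21 and 14 peaks. The median over the loci of all protein-coding genes was 0.464 in WT, 1.47 in dKO and 0.964 in dKO+BAF53B. Gene by gene, 5 of the 10 loci lay above this median in WT (SOX1, SOX4, SOX11, SOX9, SOX10), 5 in dKO (SOX1, SOX2, SOX4, SOX9, SOX10) and 4 in dKO+BAF53B (SOX1, SOX4, SOX9, SOX10), so the group densities rest on some of their members. In dKO the density was 3.69 at SOX10, 2.93 at SOX1 and 2.44 at SOX4, and 0.990 at SOX3 and 0.487 at SOX8. With 7880 peaks in each list, SOXB1 loci held 1 peak in WT, 2 in dKO and 1 in dKO+BAF53B.

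**Figure D3:**
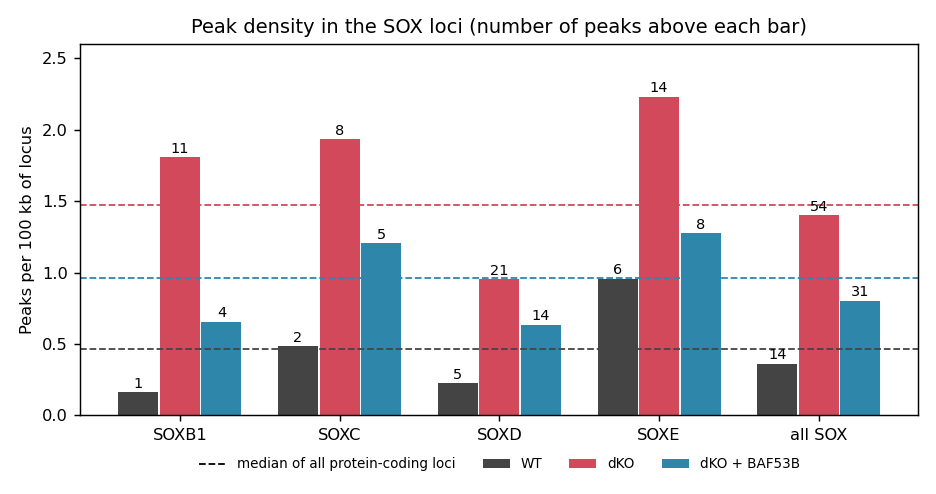
Peaks per 100 kb of locus in the 4 SOX groups and in all 10 SOX loci for WT, dKO and dKO+BAF53B, with the number of peaks above each bar and dashed lines at the median of all protein-coding loci in the same list. In dKO the pooled SOXB1, SOXC and SOXE bars, at 1.81, 1.93 and 2.23, rise above the dKO median of 1.47, although single loci such as SOX3 (0.990) and SOX8 (0.487) lie below it, and the SOXD bar stands at 0.952.

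Next, peaks were matched between lists by an overlap of at least 1 bp. Of the 14 WT peaks in the SOX loci, 11 overlapped a dKO peak, a share of 78.6% (Wilson 95% interval 52.4 to 92.4%), and 3 did not, where 20.6% of all WT peaks had no dKO partner. Of the 54 dKO peaks, 43 had no WT partner, where the background was 75.6%, and 32 had no dKO+BAF53B partner, where it was 55.7%. The counts lay near the background in all 3 cases. The overlap of dKO peaks with WT ran from 0 of 11 in SOXB1 and 3 of 21 in SOXD to 2 of 8 in SOXC and 6 of 14 in SOXE. The 3 WT peaks without a dKO partner also lacked one in dKO+BAF53B. They had 27 reads 87.1 kb upstream of SOX1, 27 reads 463 kb downstream of the SOX5 TSS and 26 reads 408 kb downstream of the SOX6 TSS, close to the smallest WT pileup of 25.

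When the 3 lists were merged, the SOX loci held 66 regions. dKO alone gave 32 of them (48.5%, 36.8 to 60.3%), where 42.8% of all 32108 merged regions were of this class. All 3 lists shared 11 (16.7%, beside 17.9% of all regions), and dKO and dKO+BAF53B shared 11 (16.7%, beside 16.8%). dKO+BAF53B alone gave 9 (13.6%, beside 16.2%) and WT alone 3 (4.55%, beside 3.63%), so these shares lay near the background. No SOX region was shared by WT and dKO+BAF53B and missing in dKO, a class that made up 1.38% of all regions. By annotation 26 regions lay in introns, 7 in exons and 33 outside protein-coding genes, and 5 stood at the promoter of another gene.

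The heights of matched peaks were then compared. The 11 WT peaks with a dKO partner had scaled log2 ratios of dKO over WT from 0.04 to 1.34, with a median of 0.58, and all 11 were above 0, as were 91.5% of all matched WT peaks. Over all 6255 matched WT peaks the median was 0.71. By the deposited fold in place of the pileup, 10 of the 11 were higher in dKO, with a median log2 ratio of 0.22. Past 2-fold was 1 of the 11, the SOX10 region in EIF3L, where the background was 24.5%. The 22 dKO peaks with a dKO+BAF53B partner had log2 ratios of dKO+BAF53B over dKO from −1.39 to 0.64, with a median of −0.32, beside −0.36 for all matched dKO peaks. For dKO+BAF53B over WT the median of 11 peaks was 0.08, beside 0.24 for all. The medians of the SOX loci thus lay near those of the whole lists, and the widest spread was between single regions.

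**Figure D4:**
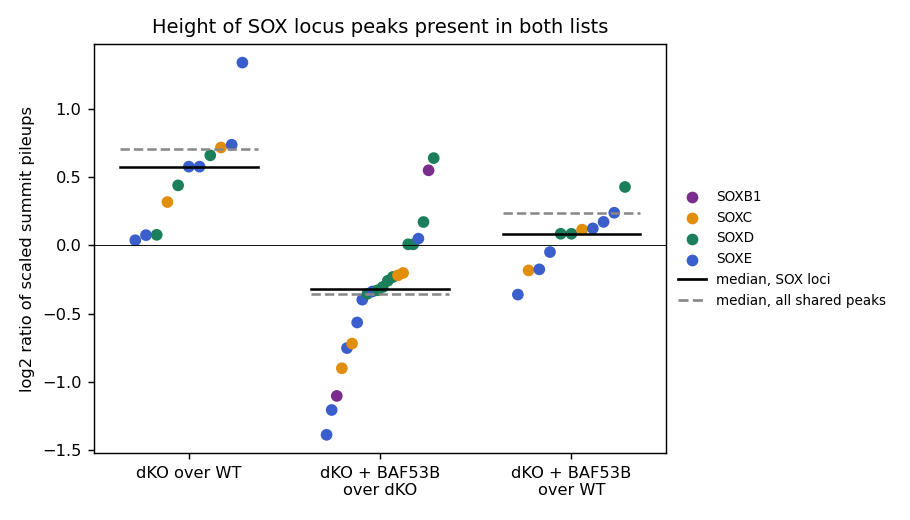
Log2 ratio of summit pileups, scaled to the genome background of each list, for the SOX locus peaks present in both lists of a comparison (11, 22 and 11 peaks), with each point a peak coloured by group, solid lines at the SOX median and dashed lines at the median of all matched peaks. All 11 ratios of dKO over WT lie above 0, and the medians of the SOX loci (0.58, −0.32 and 0.08) lie near those of all peaks (0.71, −0.36 and 0.24).

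Whether peaks in the SOX loci carry the letters of a SOX motif was asked last, within 100 bp of the summit. In dKO, 20 of 54 peaks did (37.0%, 25.4 to 50.4%), where the share over all dKO peaks was 18.3%. Over 3 kb from the canonical TSS of any protein-coding gene it was 18 of 43 (41.9%, 28.4 to 56.7%) against 24.3% of all such peaks. Some of these distal peaks lay at starts of lncRNA genes or of other SOX transcripts. The median GC content of the distal peaks was 54.7% in the SOX loci and 55.2% in the whole list. By group the dKO count was 4 of 11 in SOXB1, 2 of 8 in SOXC, 8 of 21 in SOXD and 6 of 14 in SOXE. The SOX1 and SOX10 distal regions printed above were among them, and so was the dKO peak 44.9 kb downstream of SOX2. In WT 4 of 14 peaks held the motif (28.6%, 11.7 to 54.6%; all peaks 16.5%), and in dKO+BAF53B 7 of 31 (22.6%, 11.4 to 39.8%; all peaks 20.5%). The dKO interval lay above the share of its whole list, and those of WT and dKO+BAF53B contained theirs. Peaks in 1 locus share their sequence context and such intervals treat them as independent, and a match to 6 letters is not a bound site. GC boxes stood in 14 of 54 dKO peaks (25.9%, 16.1 to 38.9%) against 39.3% of the list. Among distal peaks the shares were close, with 8 of 43 (18.6%) against 19.9%. AP-1 letters stood in 4 of 54 dKO peaks (7.41%, 2.92 to 17.6%, against 3.54% of all peaks). They stood in 4 of 31 dKO+BAF53B peaks (12.9%, 5.13 to 28.9%, against 7.84%), and both intervals contained the share of the list. The SOX motif in dKO was not the only one with an interval above its list. E-boxes stood in 12 of 31 dKO+BAF53B peaks (38.7%, 23.7 to 56.2%, against 21.9%). Among distal dKO+BAF53B peaks it was 9 of 23 (39.1%, 22.2 to 59.2%), and this interval contained the 27.9% of all such peaks. Octamers stood in 2 of 54 dKO peaks (3.70%, 1.02 to 12.5%, against 0.979%).

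**Figure D5:**
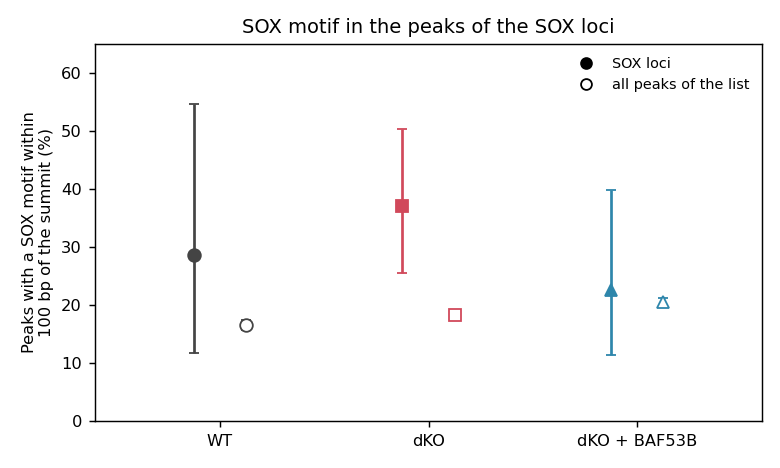
Share of peaks (%) with the letters of a SOX motif within 100 bp of the summit, for the SOX loci (filled) and for all peaks of the list (open), with Wilson 95% intervals that cover counting error only. The dKO share in the SOX loci, 37.0%, has an interval above the 18.3% of all dKO peaks, and the WT and dKO+BAF53B intervals contain the value of their list.

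Of 7 further SOX genes, a promoter peak was present at 1 in WT, 4 in dKO and 1 in dKO+BAF53B, beside the 29.0%, 58.7% and 46.6% of all genes. SOX12, the remaining SOXC gene, had 38 reads in WT, 85 in dKO and 66 in dKO+BAF53B, in the order of SOX4 and SOX9. SOX21, a SOXB2 gene that opposes SOXB1 proteins in progenitors, had 38 reads in dKO alone, as did the SOXD gene SOX13 with 63 reads and SOX15 with 51. Among 15 partner factors of SOX proteins, the promoters of 5 were open in WT, of 9 in dKO and of 6 in dKO+BAF53B, which lay near the same shares. PAX6, a progenitor factor that acts with SOX2, had 37 reads in WT, 59 in dKO and no peak in dKO+BAF53B. The POU factor POU3F2, which binds beside SOXB1 proteins, had 51, 44 and 41 reads, and POU3F3 had 43, 48 and 50 reads. TCF7L2, a mediator of Wnt signals, had 34, 97 and 60 reads. OLIG2, a factor of motor neuron and oligodendrocyte precursors, had 39 reads in dKO+BAF53B alone.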

How the data were processed

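ATAC-seq libraries of 6 samples (3 groups of 2) were made with the Tn5 transposase. According to the methods of the study, the authors trimmed reads with cutadapt 1.13, aligned them to hg38 with Bowtie2 2.2.5, removed duplicates with SAMtools 1.3.1 and Picard 1.90 and called peaks with MACS2, whose version, options and shift of cut sites are not given in the sources used here. Both replicates of a group share 1 list of peaks. In each deposited list the fold is a ratio of the pileup over the local background (1 added to both), the deposited −log10 p and the deposited score −log10 q grade the same pileup, the latter being 5 or more throughout, and a further deposited column gives the summit.

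The whole pileup and the background were solved from the deposited fold and −log10 p, which succeeded for 100% of peaks and was tested on simulated data. Ratios between lists were made after division by the genome background of a list. Genes came from GENCODE version 44 and promoter sequences from RefSeq (GRCh38.p14), whose table was matched for SOX1, SOX2, SOX3, SOX4, SOX5 and SOX6 (SOX8, SOX9, SOX10 and SOX11 had no entry). Overlap meant at least 1 bp. Shares have Wilson and pileups exact Poisson 95% intervals, and all intervals, those of ratios included, cover counting error only. A gene's strongest promoter peak in every list was named, with the 2 regions of highest fold per locus outside promoters and every WT peak without a dKO partner. Of the promoter peak of highest pileup and the distal peak of highest fold per group, 150 bases were printed, except 2 windows that are not reported here. Region pairs singled out beyond this rule were chosen after their values were seen. The members, gene lists and rules were chosen with earlier results of these data known. Analyses ran in Python 3.11.15 with pandas 2.3.3, numpy 2.4.6, pysam 0.24.0 and scipy 1.17.1. Alternatives were a stricter −log10 q (10 or more), lists of equal length, and other overlap rules, promoter windows, start sites, flanks, pileup measures and motif windows.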

Additional observations from a re-analysis of the deposited data

How the results depend on the processing

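No paired analysis was possible because the 3 lists merge their replicates and the columns carry no replicate number, and values without a replicate were not run for the same reason. Read depth per sample, and so the smallest peak each sample could show, is not known. Of 159 values under other settings, 110 stayed within 1.5 times (counts) or within the counting interval (shares and medians), and 49 did not. Only the 3 medians of the pileup ratio could change sign, and none did. A count can stay the same while its genes change, and orders of counts did change. SOXD held 21 peaks in dKO and 14 in dKO+BAF53B, but 6 and 7 at equal list length.

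The threshold and the length of the lists moved most. At a −log10 q of at least 10, WT had a promoter peak at 1 SOX gene, beside 14.8% of all genes. At this setting 1 SOX gene (SOX1) had one in dKO+BAF53B and not in dKO, beside 1.80% of all genes. In dKO and not in WT were still 4 SOX promoters, but other ones (SOX2, SOX4, SOX5, SOX9), beside 29.5% of all genes. SOX1 and SOX3 then had no dKO promoter peak, and SOX4 and SOX9 had none in WT. The SOX loci held 5, 22 and 12 peaks in WT, dKO and dKO+BAF53B. SOXB1 held 0, 4 and 1 of these, SOXC 1, 3 and 2, SOXD 3, 8 and 7, and SOXE 1, 7 and 2. Of the WT peaks, 5 of 5 (100%) overlapped dKO, beside 93.8% of all WT peaks. At equal list length, dKO had promoter peaks at 3 SOX genes, 1 of them (SOX2) not in WT, beside 34.5% and 9.79% of all genes. dKO+BAF53B had 2 (SOX1 and SOX9) not in dKO, beside 5.47% of all genes. The dKO and dKO+BAF53B peaks were then 16 and 13 in all SOX loci, 2 and 1 in SOXB1, 3 and 2 in SOXC, 6 and 7 in SOXD and 5 and 3 in SOXE, and 56.2% of dKO peaks overlapped WT and 56.2% dKO+BAF53B, beside 61.7% and 67.7% over the whole lists. With the 5′ end of the gene as TSS, 1 SOX gene (SOX5) had a peak in dKO+BAF53B and not in dKO, beside 2.05% of all genes.

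Flanks of 50 kb left 9 WT peaks (SOXB1 0; SOXE 2), 6 dKO and 3 dKO+BAF53B peaks in SOXE. Flanks of 250 kb gave 90 dKO and 51 dKO+BAF53B peaks: SOXB1 2 in WT and 7 in dKO+BAF53B, SOXC 14 in dKO and 11 in dKO+BAF53B, and SOXE 10, 32 and 17 in WT, dKO and dKO+BAF53B. Within 50 bp of the summit, 22.2% of dKO peaks in the SOX loci held a SOX motif, beside 10.3% of all dKO peaks. The 3 medians of the pileup ratio kept their sign and stayed within their intervals under every setting.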

Other observations

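Promoter peaks at markers of the cells that SOX proteins are known to shape are given as values, and over all protein-coding genes 29.0% had one in WT, 58.7% in dKO and 46.6% in dKO+BAF53B. The promoters of 2 of 6 neuronal markers were open in WT, of 4 in dKO and of 4 in dKO+BAF53B. MAP2, a cytoskeletal protein of dendrites, had 33, 69 and 42 reads in WT, dKO and dKO+BAF53B, and SYT1, a synaptic calcium sensor, had 42, 50 and 57. TUBB3 and SNAP25 had no WT peak, with 53 and 35 reads in dKO and 46 and 44 in dKO+BAF53B. DCX and RBFOX3 had none in any list.

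For 6 glial markers the numbers were 1 in WT, 2 in dKO and 2 in dKO+BAF53B. PDGFRA, the receptor of oligodendrocyte precursors, had 32 reads in WT and 37 in dKO, and OLIG1 had 33 reads in dKO+BAF53B alone, as OLIG2 did with 39. For 6 neural crest markers they were 0, 2 and 1 in the same order. SNAI2 had 43 reads in dKO and 36 in dKO+BAF53B, TWIST1 had 29 in dKO, and FOXD3, PAX3, TFAP2A and TFAP2B had none in any list.

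Among neural progenitor markers, HES1, a target of Notch signals that keeps progenitors from differentiating, had 37, 113 and 67 reads, and LHX2 had 56, 104 and 53. NOTCH1 had 109 reads in dKO, 40 in dKO+BAF53B and no peak in WT. MSI1 had 38 reads in dKO alone. Other progenitor markers were not highest in dKO. VIM had 34, 37 and 52 reads in WT, dKO and dKO+BAF53B. FABP7 had 28 reads in dKO and 45 in dKO+BAF53B, and CDH2 had 42 in each, with no WT peak at either.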
